A study of Homo sapiens with 11 samples.

Results

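VGF and 6 other proteins of the secretory granule are described here in 11 tumours, 6 from vehicle animals and 5 from animals given evexomostat. VGF was singled out because its difference between the groups was among the largest in these libraries, and SCG2, SCG5, CHGA, CHGB, PCSK1 and PCSK1N were added by symbol as granins or as proteins that act on prohormones in the same granules. All 7 were found among the 28152 gene symbols of the deposited count table. The genes were thus chosen by the difference in count level between these same tumours, so their levels and fold changes between the groups are given as descriptions. Where a call of one of them is mentioned it is not evidence for a difference, and p-values on them are given only for how they vary among vehicle tumours.

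RNA was sequenced from xenografts of the breast cancer line BT-474, as the labels name it, with the genotype label HR+/Her2+, grown in the mammary fat pad of female athymic nude mice. All animals of both groups carried an estradiol pellet of 0.72 mg with a release time of 90 days, and a tumour could enter the study once it was larger than 95 mm3. One group received evexomostat (SDX-7320), an inhibitor of the methionine aminopeptidase MetAP2, at 12 mpk under the skin once per 4 days, and the vehicle group received mannitol in water on the same schedule. Tumours are labelled day 33, each gave 1 library, and the age of the animals is not given in the sources used here. The host mice lack a thymus and keep their other stromal and blood cells, and the handling of mouse reads is not given in the sources used here.

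Granins are acidic proteins that gather at the trans-Golgi network and are packed with prohormones into dense-core granules, the stores of the regulated secretory pathway of endocrine cells and neurons. Inside the granule, proprotein convertases cut granins and prohormones into shorter peptides, which leave the cell when a signal such as calcium or cyclic AMP triggers exocytosis. VGF was first known as a transcript induced by nerve growth factor in neuroendocrine cells, and its peptides, TLQP-21 among them, act on energy balance and neurons. Transcription of several of these genes is known to respond to CREB, the factor that binds the cyclic AMP response element.

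The stretches just before the annotated start sites are shown because 3 of the genes carry the full palindromic response element there. RefSeq promoters of GRCh38.p14 were matched by symbol for 5 of the 7 genes, and the 250 bases before the start are printed 5′ to 3′ on the strand of the gene, with any TGACGTCA in capitals. The VGF stretch is chr7:101165570-101165819 on the minus strand, that of CHGA chr14:92922900-92923149 on the plus strand, that of the first of 2 PCSK1 starts chr5:96433249-96433498 on the minus strand, and that of PCSK1N chrX:48835611-48835860 on the minus strand.
VGF: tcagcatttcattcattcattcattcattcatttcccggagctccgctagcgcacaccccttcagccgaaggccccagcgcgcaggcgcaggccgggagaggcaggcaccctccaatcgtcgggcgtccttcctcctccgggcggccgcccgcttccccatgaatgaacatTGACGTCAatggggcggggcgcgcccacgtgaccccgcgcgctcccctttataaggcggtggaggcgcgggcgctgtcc
CHGA: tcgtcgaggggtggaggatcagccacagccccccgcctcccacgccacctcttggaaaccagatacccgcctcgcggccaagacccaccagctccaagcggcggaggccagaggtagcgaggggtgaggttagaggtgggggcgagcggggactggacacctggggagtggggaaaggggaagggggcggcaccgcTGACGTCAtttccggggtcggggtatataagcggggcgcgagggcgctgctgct
PCSK1: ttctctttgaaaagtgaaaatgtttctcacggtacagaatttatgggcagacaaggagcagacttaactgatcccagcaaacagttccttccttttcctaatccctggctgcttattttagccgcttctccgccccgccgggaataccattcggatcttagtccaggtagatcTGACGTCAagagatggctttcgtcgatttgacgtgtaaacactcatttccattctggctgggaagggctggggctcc
PCSK1N: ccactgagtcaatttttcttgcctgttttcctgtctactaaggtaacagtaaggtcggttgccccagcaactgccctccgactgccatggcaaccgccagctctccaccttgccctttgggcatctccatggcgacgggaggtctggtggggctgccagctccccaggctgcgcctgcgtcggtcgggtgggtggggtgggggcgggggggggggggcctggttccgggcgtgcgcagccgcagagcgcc
The element began 79 bases before the start in VGF, 54 bases before it in CHGA and 77 bases before it in PCSK1. It was absent from the windows of PCSK1N, of SCG5 and of the second PCSK1 start. Over 35116 RefSeq promoter windows of 300 bases (250 before and 50 after the start), searched on both strands, 1.85% held TGACGTCA and 24.6% held its core TGACG, which every TGACGTCA contains. VGF also had a TATAA beginning 30 bases before the start on its own strand (20.4% of windows hold one), a CCAAT at 138 bases (34.6%) and a CACGTG at 54 bases (7.26%). A match is a description of the letters and no measure of binding in these tumours.

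Library totals ran from 22808033 to 39249329 counts, so 3 counts, the limit that a count of 0 allows, were worth 0.0764 to 0.132 RPM, the reads scaled to a common library total. Vehicle replicate 001 stood apart: its 100 most abundant genes took 23.9% of counts, against 16.2 to 17.9% in the other 10 libraries, and its TMM factor was 0.86. Evexomostat replicate 005 held skeletal muscle markers at a summed 452 CPM, against 53.5 CPM in the next evexomostat library and at most 21.7 CPM under vehicle. The sum came mostly from ACTA1 (140 CPM), MYH1 (99.2 CPM), MYH4 (76.4 CPM), MYH2 (74.2 CPM) and ATP2A1 (58.4 CPM). TNNI2 was also highest there, at 2.98 CPM. CKM, TNNT3, MYLPF and MB, at 0.232, 0.0662, 0.132 and 0.563 CPM in replicate 005, were each higher in some other library. ERBB2, the gene of HER2, was at 52.5 ± 14.1 CPM under vehicle (SD, n = 6). ESR1, the estrogen receptor gene, was at 0.329 ± 0.176 CPM and PGR, the progesterone receptor gene, at 0.0683 ± 0.0611 CPM, so both hormone receptors of the label were near the limit of detection. Luminal and epithelial markers were low too, with GATA3 at 6.26 ± 2.92, EPCAM at 2.72 ± 1.67, FOXA1 at 1.06 ± 0.467, KRT19 at 0.533 ± 0.608 and CDH1 at 0.474 ± 0.459 CPM under vehicle (SD, n = 6), whereas KRT8 and KRT18 were at 346 ± 138 and 134 ± 35 CPM. These levels go against the label of a hormone receptor positive luminal line. ERBB2 was also below the convertase gene FURIN, at 90.7 ± 25.8 CPM under vehicle (SD, n = 6). A high RNA level thus does not bear out the HER2 part of the label, and the cells are called by their label only. Here and throughout, CPM are counts relative to the library total scaled with TMM factors, and the range of depth limits the precision of the rarest genes to a few counts.

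VGF, the neuropeptide precursor and extended granin, was higher in every evexomostat tumour than in any vehicle tumour. Its level in vehicle replicates 001, 003, 004, 005, 006 and 007 was 3.73, 4.18, 2.15, 1.67, 4.46 and 0.662 CPM. In evexomostat replicates 002, 003, 004, 005 and 007 it was 20.2, 25.6, 19.6, 12.7 and 15.1 CPM. The lowest evexomostat tumour, replicate 005, was 2.86 times the highest vehicle tumour, replicate 006, so the groups did not overlap. The means were 2.81 ± 1.54 CPM under vehicle (SD, n = 6) and 18.6 ± 4.98 CPM under evexomostat (SD, n = 5), a ratio of 6.64. These levels rested on 18 to 162 reads per vehicle library and on 385 to 650 reads per evexomostat library. The log2 fold change was 2.73 (SE 0.394) by edgeR, the 9th highest of 16653 tested genes.

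VGF varied less between treated tumours than between control tumours, relative to the mean. Its coefficient of variation was 54.7% under vehicle and 26.7% under evexomostat, a difference that was not tested. This was not particular to VGF: the value also fell for SCG2, CHGB (59.4% and 17.4%), PCSK1 (48.5% and 19%) and PCSK1N (59.1% and 21.2%). It was higher under evexomostat for the rare CHGA and SCG5, and it was not compared over all tested genes. The replicate with the fewest VGF reads under evexomostat, 005, is the one with the high sum of muscle markers, which only some of them made up. Any part of muscle RNA in its VGF level was not tested. Without it the log2 fold change was 2.84. Without vehicle replicate 001 the vehicle mean was 2.62 ± 1.64 CPM (SD over the remaining vehicle tumours). Over all 22 alternatives of scaling, test, filter and libraries, the log2 fold change of VGF stayed between 2.49 and 3.24. The authors' deposited table gives 2.82. In bulk tumour RNA, more cells that express a gene and more RNA per cell cannot be told apart, which holds for every gene below.

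**Figure D1:**
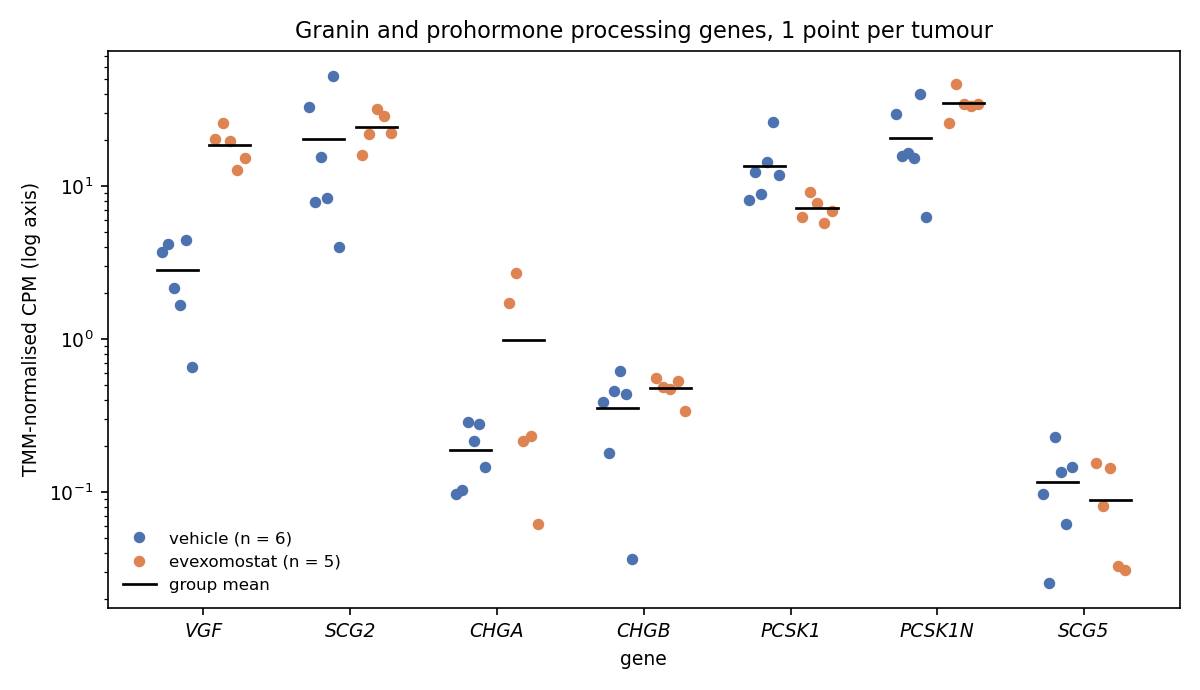
Normalised level of the 7 genes in each tumour, in TMM-normalised CPM on a log axis; blue points are the 6 vehicle tumours, orange points the 5 evexomostat tumours, and black lines the group means. VGF is the gene whose groups are fully apart (at most 4.46 CPM under vehicle, at least 12.7 CPM under evexomostat), while CHGA splits the evexomostat tumours into 2 high and 3 low ones.

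Among the 5 of the 7 genes that passed the count filter, 1, VGF, had an adjusted p under 0.05 by edgeR, where 0.606% of all tested genes did. The same gene was the only one of the 5 whose groups did not overlap, where 2.97% of tested genes did not overlap (1.33% with the evexomostat group higher). CHGA and SCG5 were too low for the filter. That VGF is among the called genes follows from how it was chosen, and the call was lost when evexomostat replicate 002, 005 or 007 was left out, or 002 and 003 together. Other genes of the 7 passed the same threshold under some alternatives, which are as dependent on that choice: PCSK1 with DESeq2 and by edgeR without vehicle replicate 001, SCG2 in both fits over the 8 libraries whose replicate numbers both groups share, and PCSK1N in the fit of those libraries with no replicate block.

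The groups overlapped for each of the other granins. SCG2, the precursor of secretoneurin, was at 32.9, 7.9, 15.5, 8.29, 52.1 and 4.01 CPM in vehicle replicates 001, 003, 004, 005, 006 and 007. Under evexomostat it was at 15.8, 21.9, 31.8, 28.5 and 22.3 CPM in replicates 002, 003, 004, 005 and 007. All 5 evexomostat tumours lay inside the vehicle range, and all 5 lay above the vehicle median of 11.9 CPM. The vehicle tumours spread widely, with a coefficient of variation of 93.1% against 25.9% under evexomostat. The means were 20.1 ± 18.7 CPM (SD, n = 6) and 24.1 ± 6.24 CPM (SD, n = 5), and the log2 fold change was 0.26 (SE 0.531). Vehicle replicates 001 and 006 set that size: the log2 fold change was 0.815 without vehicle replicate 006, 0.46 without replicate 001, and 1.54 over the 8 libraries that leave out vehicle replicates 001 and 006 and evexomostat replicate 002.

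CHGA, chromogranin A, the granin most used as an endocrine marker, was rare in 9 of the 11 tumours. It had 2 to 10 reads in each vehicle library and 6, 7 and 2 reads in evexomostat replicates 004, 005 and 007. In evexomostat replicates 002 and 003 it had 55 and 67 reads, or 1.71 and 2.71 CPM. The other 3 evexomostat tumours, at 0.217, 0.232 and 0.0622 CPM, lay near the vehicle range of 0.097 to 0.286 CPM. The evexomostat mean of 0.986 ± 1.17 CPM (SD, n = 5) therefore rests on those 2 tumours, and its SD exceeds it. Vehicle tumours averaged 0.188 ± 0.0851 CPM (SD, n = 6).

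The same 2 tumours were high in SCG3 and PCSK2, which were picked out after the values had been seen. SCG3, a granin that binds CHGA, had 26 and 18 reads in evexomostat replicates 002 and 003 and at most 7 in any other library, and PCSK2 had 26 and 19 against at most 7.

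**Figure D2:**
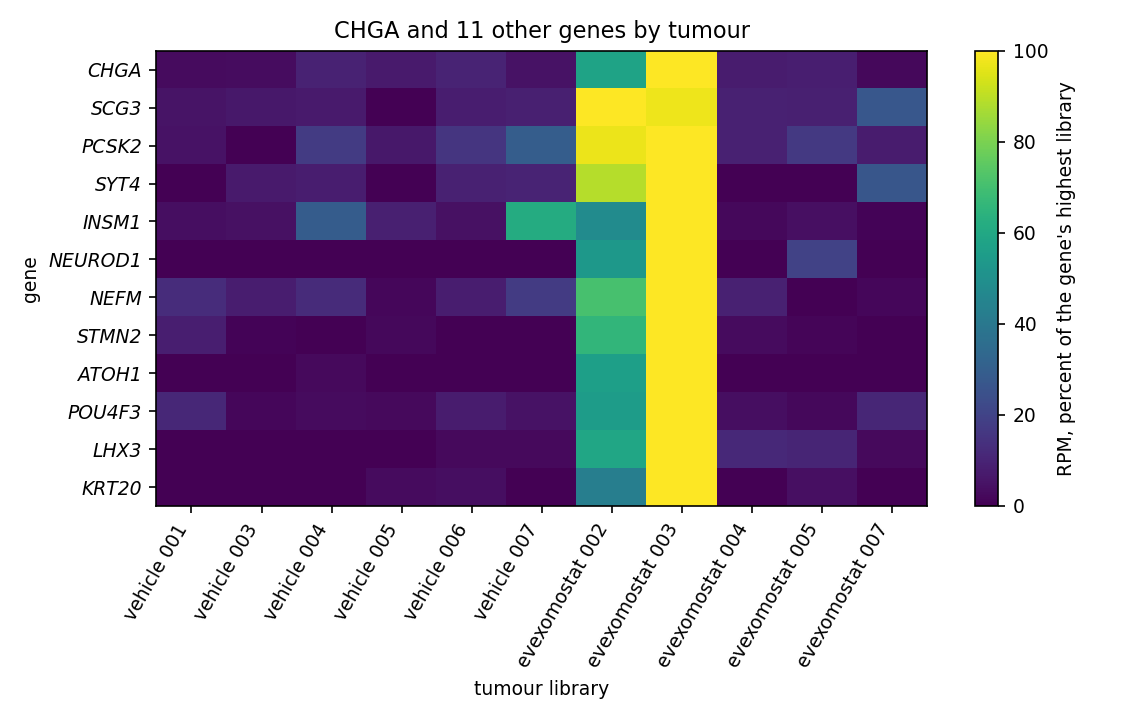
RPM of CHGA and 11 other genes in each library, as a percent of the highest library of that gene; columns are the 6 vehicle and 5 evexomostat tumours, and brighter squares are higher. CHGA, SCG3, PCSK2 and most of the others are bright in evexomostat replicates 002 and 003 alone, on no more than 81 reads. INSM1 is also bright in vehicle replicate 007. Apart from SYT4, INSM1 and NEUROD1, the other genes are among those picked out for being high in these replicates, so their pattern follows from that choice.

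CHGB, chromogranin B, was nearly as rare, at 1 to 23 reads per vehicle library and 11 to 18 per evexomostat library. Its means were 0.353 ± 0.21 CPM under vehicle (SD, n = 6) and 0.478 ± 0.0833 CPM under evexomostat (SD, n = 5). The groups overlapped, and the log2 fold change was 0.418 (SE 0.447).

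PCSK1, which encodes the convertase PC1/3 that cuts prohormones early in the granule, lay lower in evexomostat tumours. Its level was 8.05, 12.3, 8.82, 14.4, 26.1 and 11.7 CPM in vehicle replicates 001, 003, 004, 005, 006 and 007. In evexomostat replicates 002, 003, 004, 005 and 007 it was 6.27, 9.19, 7.72, 5.73 and 6.87 CPM. The groups overlapped only through evexomostat replicate 003, which was above vehicle replicates 001 and 004, and all 5 evexomostat tumours were below the vehicle median of 12 CPM. The means were 13.5 ± 6.57 CPM (SD, n = 6) and 7.16 ± 1.36 CPM (SD, n = 5), and the log2 fold change was -0.922 (SE 0.284). It ran from -1.03 to -0.627 over 22 alternatives, the smallest size without vehicle replicate 006, the tumour with the highest PCSK1.

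PCSK1N encodes proSAAS, a granule protein that inhibits PC1/3, and had the highest level of the 7 genes per length of transcript. It was at 29.4, 15.6, 16.3, 15.2, 40.0 and 6.25 CPM in vehicle replicates 001, 003, 004, 005, 006 and 007. It was at 25.9, 46.5, 34.4, 33.1 and 34.5 CPM in evexomostat replicates 002, 003, 004, 005 and 007. Vehicle replicates 001 and 006 reached into the evexomostat range, and the other 4 vehicle tumours were below every evexomostat tumour. The means were 20.5 ± 12.1 CPM (SD, n = 6) and 34.9 ± 7.39 CPM (SD, n = 5), and the log2 fold change was 0.769 (SE 0.355). That value was 1.08 without vehicle replicate 006, 0.91 without vehicle replicate 001 and 1.46 over the 8 libraries without those 2 and evexomostat replicate 002. The convertase gene and the gene of its inhibitor thus had fold changes of opposite sign.

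SCG5 encodes 7B2, the chaperone of the related convertase PC2, and was at the edge of detection. It had 1 to 8 reads per vehicle library and 1 to 5 per evexomostat library, or 0.116 ± 0.0714 CPM (SD, n = 6) and 0.0891 ± 0.0593 CPM (SD, n = 5). No difference was detectable at this depth. SCG5 overlaps an antisense gene and a readthrough gene, and the use of strand in counting is not given in the sources used here, so its few reads are uncertain. PCSK2, the gene of PC2 itself, had at most 7 reads in any vehicle library.

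**Figure D3:**
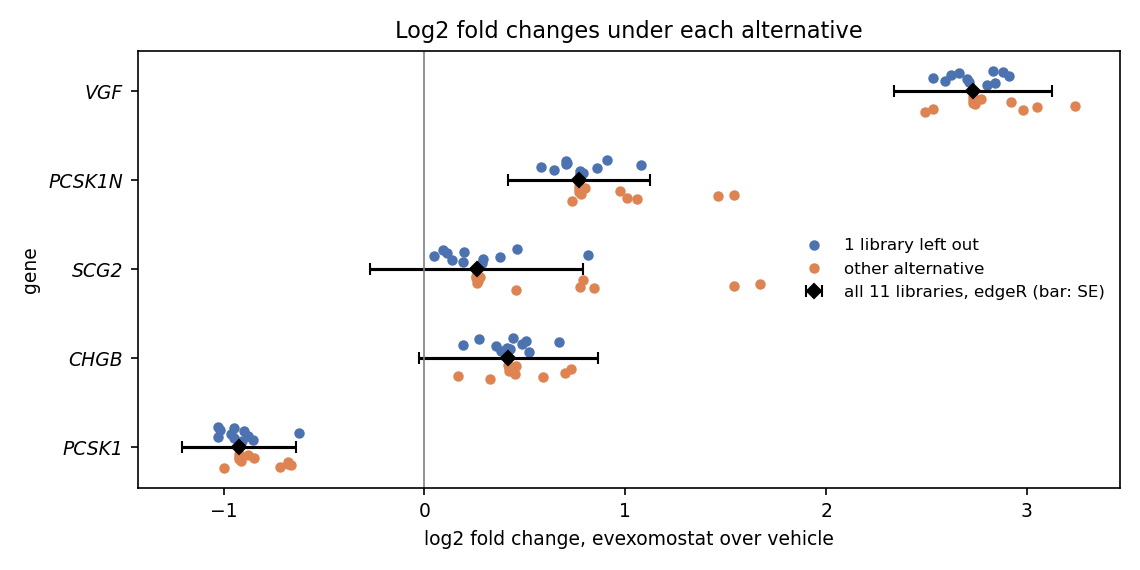
Log2 fold change of the 5 genes that passed the count filter; black diamonds are the edgeR values over all 11 libraries with the SE as a bar, blue points leave out 1 library each, and orange points are the other alternatives. VGF stays between 2.49 and 3.24 and PCSK1 below 0 (-1.03 to -0.627), whereas SCG2 runs from 0.0456 to 1.67.

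Divided by the union of the exons of each gene (GENCODE release 29), the levels ordered the genes differently in the 2 groups. Under vehicle the order in CPM per kilobase was PCSK1N at 19.5 ± 11.5, SCG2 at 7.4 ± 6.89, PCSK1 at 2.58 ± 1.25 and VGF at 1.04 ± 0.569 (SD, n = 6). CHGB, CHGA and SCG5 followed at 0.134, 0.0913 and 0.0838 CPM per kilobase, and these 3 did not differ from each other beyond their spread. Under evexomostat VGF came next after SCG2, at 6.9 ± 1.84 CPM per kilobase (SD, n = 5), against 8.85 ± 2.3 for SCG2, within the spread of both, and above PCSK1 at 1.37 ± 0.259. PCSK1N stayed first at 33.2 ± 7.04. As a share of the summed level per kilobase of all 7 genes, VGF made up 2.43 to 7.08% in vehicle tumours and 9.79 to 18.5% in evexomostat tumours.

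Within the vehicle group, 1 of 6 gene pairs, SCG2 with PCSK1N, varied together past the threshold by Pearson's r after adjustment, and 0 of 6 did by Spearman's rho. VGF, SCG2 and PCSK1N were all highest in vehicle replicate 006 and all lowest in vehicle replicate 007. Across the 6 vehicle tumours, log2 CPM of SCG2 and PCSK1N correlated with Pearson's r = 0.957 (exact permutation p = 0.00556 over 720 orders, two-sided, adjusted p = 0.0334 over 6 gene pairs) and Spearman's rho = 0.943 (exact permutation p = 0.0167, adjusted p = 0.1). Pearson's r was 0.86 without the 2 tumours farthest from the median of SCG2, and 0.949 without vehicle replicate 001. VGF and PCSK1N gave r = 0.88 (exact permutation p = 0.0417, adjusted p = 0.111) and rho = 0.829 (exact permutation p = 0.0583, adjusted p = 0.175), and r was 0.543 without the 2 farthest tumours, so that relation rests on them. VGF and SCG2 gave r = 0.755 (exact permutation p = 0.0556, adjusted p = 0.111) and rho = 0.657 (exact permutation p = 0.175, adjusted p = 0.35), and r was 0.268 without the 2 farthest. The pairs with PCSK1 gave r from 0.215 to 0.341, and none passed (exact permutation adjusted p = 0.719 for each). The 6 pairs were those among VGF, SCG2, PCSK1N and PCSK1, and they were computed after the values had been seen. CHGB, which had also passed the count filter, was left out. The adjustment covers these 6 pairs only, and whether SCG2 with PCSK1N would pass with CHGB included was not tested. Vehicle replicate 006 also had the highest summed fibroblast markers of the vehicle tumours (263 CPM, lowest 53.9). That sum was mostly COL1A1 (223 CPM, against 234 CPM in replicate 004) and PDGFRB (39.2 CPM, against 39.9 CPM in replicate 001). DCN, LUM and PDGFRA were below their vehicle means there, at 0, 0.0312 and 0.812 CPM, so the list did not move as a whole. Its summed endothelial markers were the highest too (22.4 CPM, lowest 10.4). The part of these markers in the relation was not tested.

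The genes whose log2 CPM followed VGF most closely over the 11 libraries, by root mean square distance after centring, were NAT16 (0.694), SBK2 (0.706), ZFHX4-AS1 (0.723), ADH1B (0.774) and TMEM59L (0.818). All 5 had higher means under evexomostat, which their likeness to VGF sets. TMEM59L was the most abundant, at 3.49 ± 1.14 CPM under vehicle (SD, n = 6) and 10.2 ± 2.09 CPM under evexomostat (SD, n = 5). Its groups did not overlap, as for 1.33% of tested genes with the evexomostat group higher. Of the 3 of these genes with a RefSeq promoter, TMEM59L held a TGACGTCA, which began 4 bases before its start and ran past it.

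NAT16, an N-acetyltransferase gene, is also the next gene to VGF in the RefSeq gene order. It was at 0.345 ± 0.254 CPM under vehicle (SD, n = 6) and 1.41 ± 0.71 CPM under evexomostat (SD, n = 5). This rested on 4 to 26 reads per vehicle library and 27 to 66 per evexomostat library. Its groups did not overlap, as for 1.33% of tested genes with the evexomostat group higher. Its log2 fold change was 2 (SE 0.474), with an adjusted p of 0.0788 by edgeR. It passed the threshold with DESeq2 (adjusted p = 0.00378), without vehicle replicate 001 (adjusted p = 0.0455 by edgeR) and in the authors' deposited table (adjusted p = 0.00414). The likeness of NAT16 to VGF sets its difference between the groups, so these calls are not evidence for one. On the other side of VGF, AP1S1, a subunit of the clathrin adaptor of the trans-Golgi network, had a log2 fold change of 0.183 (SE 0.177, adjusted p = 0.729 by edgeR). PLOD3 and TRIM56, also within 3 genes of VGF, had log2 fold changes of 0.21 and -0.172. These neighbours were looked up after the values of VGF were known.

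No gene of the machinery that works with granins was called by edgeR, which says little for lists of this size. Of 72 genes in 3 lists of cleavage enzymes, granule transport proteins and peptide precursors, 46 were tested. By edgeR 0 of them had an adjusted p under 0.05 (0.606% of all tested genes did), and at that share 0 calls among 46 genes are no result about them. An unadjusted p under 0.05 was found for 7 (13.4% of all), each of them lower (8.55% of all were). DESeq2 called 3 of the 46, all lower (of all tested genes it called 3.9%, and 2.7% as lower), and limma-voom called 0 (0.534% of all). The 3 lists were chosen with earlier results of these data known, so these counts are descriptions.

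Among 13 enzymes that cut or trim prohormones, 12 were tested, 6 with a positive and 6 with a negative log2 fold change, and the median was -0.00037 against -0.0388 over all tested genes. FURIN, the convertase of the constitutive pathway, was at 90.7 ± 25.8 CPM under vehicle (SD, n = 6) and 96.1 ± 17 CPM under evexomostat (SD, n = 5). For MBTPS1, the site-1 protease of the Golgi, the log2 fold change was 0.0608 (SE 0.172). CTSL, the lysosomal and granule protease cathepsin L, was at 724 ± 250 and 453 ± 28.1 CPM, and the log2 fold change was -0.674 (SE 0.205, adjusted p = 0.164 by edgeR, DESeq2 adjusted p = 0.0429). CPD, a carboxypeptidase of the trans-Golgi network, was at 58.8 ± 10.2 and 42.1 ± 5.84 CPM, with -0.482 as its log2 fold change (SE 0.146, adjusted p = 0.164 by edgeR, and 0.0358 without vehicle replicate 001). CTSL and CPD were 2 of the 12 whose evexomostat tumours were all below the vehicle tumours, as for 1.64% of all tested genes. CPE, the carboxypeptidase that trims the cut ends in granules, had -0.0972 (SE 0.29), and PAM, which amidates peptides, 0.164 (SE 0.134).

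Of 30 genes of granule formation and exocytosis, 26 were tested, and their median log2 fold change was -0.14. RAB27B and RAB3B, small GTPases that bring granules to the membrane, had -0.274 (SE 0.214) and 0.182 (SE 0.412), and VAMP3, a vesicle SNARE, had -0.336 (SE 0.133, adjusted p = 0.288 by edgeR). UNC13A, which primes vesicles for fusion, was at 14.8 ± 6.02 CPM under vehicle (SD, n = 6) and 6.54 ± 1.29 CPM under evexomostat (SD, n = 5). Its log2 fold change was -1.18 (SE 0.323, adjusted p = 0.125 by edgeR), and it passed with DESeq2 (adjusted p = 0.0125) and without vehicle replicate 001 (adjusted p = 0.0054 by edgeR), the library with its lowest vehicle level of 4.17 CPM. UNC13A, CPD, CPE, PAM and CTSL's DESeq2 value were picked out after the values had been seen.

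Most peptide precursors were hardly expressed: 8 of 29 passed the count filter. GAL, the galanin precursor, was at 24.6 ± 10.2 CPM under vehicle (SD, n = 6) and 31.4 ± 9.74 CPM under evexomostat (SD, n = 5). NMU, the neuromedin U precursor, had a log2 fold change of -0.395 (SE 0.273). ADM, the adrenomedullin precursor, was at 34.7 ± 22.6 and 11.2 ± 6.85 CPM, and the log2 fold change was -1.62 (SE 0.466, adjusted p = 0.14 by edgeR, DESeq2 adjusted p = 0.013). Its vehicle levels ran from 13.0 to 73.6 CPM and its evexomostat levels from 6.56 to 22.5 CPM, so the groups overlapped.

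**Figure D4:**
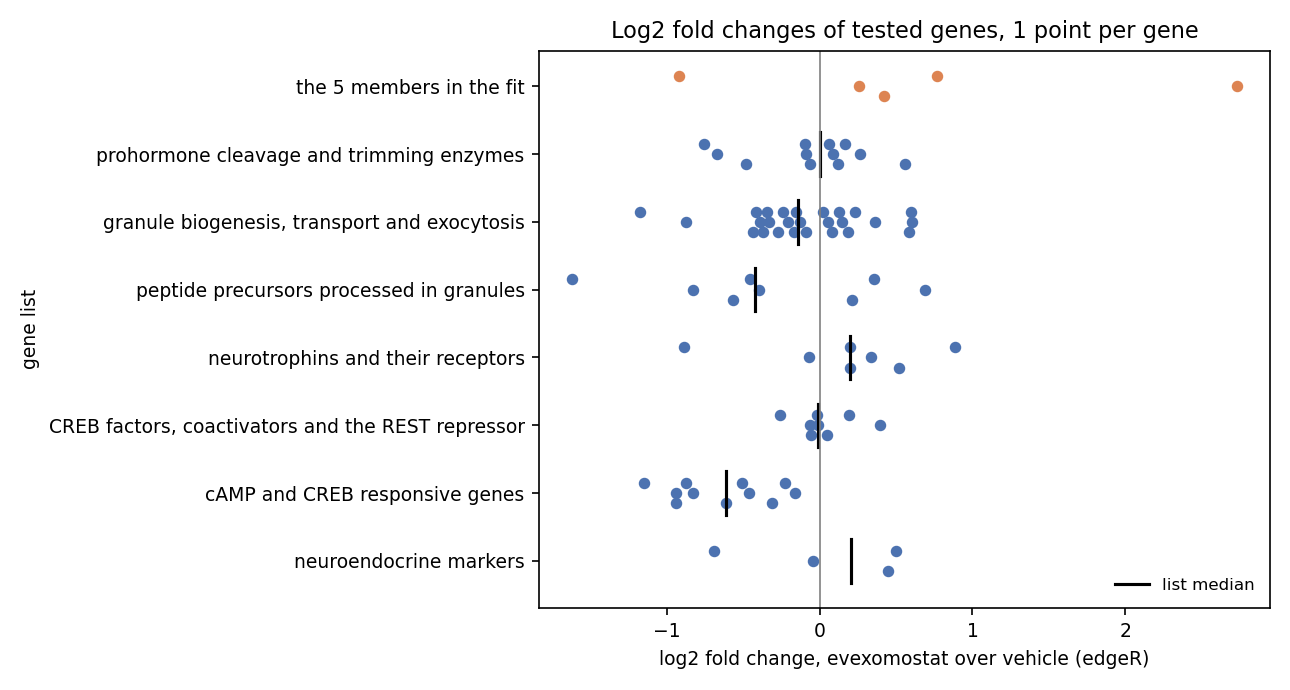
Log2 fold change of evexomostat over vehicle by edgeR for every tested gene of each list (blue points, black line at the list median) and for the 5 tested granin and processing genes (orange points). VGF lies far to the right at 2.73, the cleavage enzymes centre near 0, and all 11 genes of the cyclic AMP list lie left of 0. The lists were chosen with earlier results of these data known.

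Neurotrophins and their receptors, the signals for which VGF is named, gave 7 tested genes of 9, with 0 called by edgeR and 0 at an unadjusted p under 0.05, against 0.606% and 13.4% of all tested genes. With 7 genes, 0 calls say little. SORT1, the sorting receptor sortilin, had a log2 fold change of 0.197 (SE 0.29). NTRK2 and NTRK3, receptors of BDNF and neurotrophin-3, had -0.891 (SE 0.581) and 0.883 (SE 0.541). Of the receptors of TLQP-21, C1QBP was at 98.9 ± 12.3 and 98.1 ± 9.39 CPM, and C3AR1 did not pass the count filter.

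None of the CREB factors, their coactivators and the REST genes passed the test, and 1 of the genes known to respond to cyclic AMP or CREB did. Both lists were chosen with earlier results of these data known. Of 8 CREB factors, coactivators and REST genes, all tested, 0 were called by edgeR (0.606% of all were), which says little with 8 genes. An unadjusted p under 0.05 was found for 1, a share near the 13.4% of all tested genes. That gene, ATF1, named after its value was seen, had a log2 fold change of -0.263 (SE 0.122). CRTC2 had 0.192 (SE 0.189), CRTC3 0.0463 (SE 0.202), and REST, the repressor of neuronal genes that also acts on granin promoters, -0.017 (SE 0.199). Of 11 cyclic AMP responsive genes, all tested, all 11 had a negative log2 fold change, with a median of -0.612, where 44.6% of all tested genes were positive. By edgeR 6 of the 11 had an unadjusted p under 0.05 and were lower (8.55% of all tested genes), and 1 passed the adjusted threshold (0.432% of all were called lower). Because of how the list was chosen, these counts are descriptions and not independent evidence for a difference.

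PDE4D, the phosphodiesterase that breaks down cyclic AMP, was the gene called by edgeR. Its level was 38.3, 37.9, 35.7, 52.9, 42.4 and 60.2 CPM in vehicle replicates 001, 003, 004, 005, 006 and 007, and 26.3, 27.2, 25.2, 21.3 and 21.6 CPM in evexomostat replicates 002, 003, 004, 005 and 007. Every evexomostat tumour was below every vehicle tumour, as for 1.64% of tested genes. It fell from a mean of 44.6 ± 9.78 CPM (SD, n = 6) to 24.3 ± 2.72 CPM (SD, n = 5), and the log2 fold change was -0.874 (SE 0.158, adjusted p = 0.0313 by edgeR). The call was lost without vehicle replicate 005 (adjusted p = 0.0559 by edgeR) and without evexomostat replicate 002, 003, 004, 005 or 007 (adjusted p = 0.0835, 0.0566, 0.0941, 0.113 and 0.123 by edgeR), with a log2 fold change between -0.93 and -0.77 throughout.

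DESeq2 called PDE4B, a phosphodiesterase of the same family, as well as PDE4D (2.7% of all tested genes were called lower by it). PDE4B was at 57.6 ± 25.5 CPM under vehicle (SD, n = 6) and 30 ± 6.83 CPM under evexomostat (SD, n = 5), with overlapping groups and -0.944 as its log2 fold change (SE 0.28, adjusted p = 0.153 by edgeR, DESeq2 adjusted p = 0.0342). The 3 most abundant genes of that list did not pass. DUSP1, a phosphatase of MAP kinases, had a log2 fold change of -0.165 (SE 0.247), PER1, a clock gene, -0.465 (SE 0.295), and SIK1, a kinase that restrains CREB coactivators, -0.23 (SE 0.212). NR4A3, picked out after its values were seen, had -1.15 (SE 0.389, adjusted p = 0.213 by edgeR), and its vehicle mean of 13.3 ± 10.7 CPM (SD, n = 6) leaned on 34.9 CPM in vehicle replicate 007. Without 1 library at a time its log2 fold change ran from -1.28 to -0.587. The 10 genes of the list with a RefSeq promoter have 24 windows, since several have more than 1 start: 4.17% of these held TGACGTCA (1, of DUSP1) against 1.85% of all windows, and 29.2% held TGACG against 24.6%.

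None of the tested neuroendocrine markers passed the test. Of 8 genes, 4 were tested and 0 were called by edgeR (0.606% of all tested genes were), which says little with 4 genes. An unadjusted p under 0.05 was found for 2 (13.4% of all), in opposite directions. SYP, synaptophysin, picked out after its value was seen, had a log2 fold change of 0.501 (SE 0.213, adjusted p = 0.321 by edgeR), and ENO2, neuron-specific enolase, -0.696 (SE 0.288, adjusted p = 0.309 by edgeR). UCHL1 was abundant in every tumour, from 485 to 906 CPM, and NCAM1, a neural adhesion molecule, was at 15.8 ± 8.48 CPM under vehicle (SD, n = 6) and 21.5 ± 2.55 CPM under evexomostat (SD, n = 5). The summed level of the list was 805 to 1350 CPM under vehicle and 727 to 1080 CPM under evexomostat. Nerve and Schwann cell markers summed to 2.53 to 18.2 CPM under vehicle and 6.81 to 15.8 CPM under evexomostat, with 0 of 8 genes at 0 in all libraries, and their part in the VGF level was not tested.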

How the data were processed

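Counts of reads per gene symbol, with no normalization, were deposited for each tumour, next to an RPM table (the count over its library total, largest difference 2e-13). Per the submitters' processing notes, bcl2fastq 2.17, STAR 2.7.5c, featureCounts of Subread and edgeR were used with GRCh37 (hg19). The authors' deposited comparison table holds log2 fold changes, p-values and adjusted p-values, quoted only where named. Whether counting used strand, and how mouse reads were treated, is not given in the sources used here.

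Symbols were kept with filterByExpr (minimum count 10, minimum total 15), which left 16653 of 28152. Counts scaled with TMM factors were compared without covariates in edgeR 4.0.16 (R 4.3.3, quasi-likelihood F-test), with Benjamini-Hochberg adjustment over all tested genes and a threshold of 0.05. The SE was derived from the F statistic. Groups and replicate numbers come from the sample titles. Nothing states separate cultures of cells, so p-values measure the spread between tumours only. Alternatives were upper quartile and relative log expression scaling, limma-voom (limma 3.58.1), DESeq2 1.42.0, dropping the count filter, requiring a mean log2 CPM of at least 1, a replicate block, limma-trend on RPM with a pseudocount of 1 or 0.1 before the log2, and leaving out each library; leaving out evexomostat replicates 002 and 003 together was added after the data had been seen. The tests were tested on simulated data, where DESeq2 made a larger share of false calls than edgeR, so a pass with DESeq2 alone is weaker evidence.

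The genes and lists were chosen with earlier results of these data known. Named genes are all 7 chosen genes, in each list the genes with an adjusted p under 0.05 and up to 3 tested genes of highest mean CPM, and the 5 most like VGF. Some genes of these lists are not reported here. Promoters come from RefSeq on another build than the counts and were matched by symbol.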

Additional observations from a re-analysis of the deposited data

Results flagged for a closer look

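PCSK1 stood out in 1 vehicle tumour. Vehicle replicate 006 was at 26.1 CPM, and the other 5 vehicle tumours lay between 8.05 and 14.4 CPM, so the gap to its nearest neighbour was 0.649 of the whole vehicle range, above Dixon's critical value for 6 samples. It was 1 of 28 ends tested over the 7 genes and both groups, and chance alone puts about 1 in 20 groups past that value.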

How the results depend on the processing

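No log2 fold change of VGF, SCG2, CHGB, PCSK1 or PCSK1N changed sign under the alternatives run. The count of genes past the threshold by edgeR (101, with 29 higher and 72 lower) did change: it was 649 with DESeq2, 733 with no replicate block on the 8 libraries whose numbers both groups share, 0 (1374 at an unadjusted p under 0.05) when the evexomostat libraries with raised CHGA were left out, and 1 to 865 when 1 library was left out (865 without vehicle replicate 001, 1 without evexomostat replicate 005). With the replicate block it was 107, of which 38 were shared with the 101. Limma-trend on log2(RPM + 1) called 43 higher and 31 lower, on log2(RPM + 0.1) 38 and 30, and upper quartile scaling 28 and 42. The count of secretory pathway genes, 0 by edgeR, was 3 with DESeq2, 1 with the replicate block, 3 with no replicate block on the same 8 libraries, and 0 to 2 when 1 library was left out, all lower. Whether the replicate numbers pair the tumours was not settled. Deviations of same-numbered tumours correlated with r = -0.29, 0.063, 0.041 and -0.12 for 003, 004, 005 and 007. Differently numbered tumours were not compared, so these values have no reference. PDE4D was lower under every alternative run, and besides the libraries named above it missed the threshold with the replicate block (adjusted p = 0.0906 by edgeR), on log2(RPM + 1) and log2(RPM + 0.1) (limma adjusted p = 0.0726 and 0.0717), and without evexomostat replicates 002 and 003 (adjusted p = 0.187 by edgeR). NAT16, whose difference its likeness to VGF sets, passed the threshold on the 8 libraries with the replicate block (adjusted p = 0.037 by edgeR) and with none (adjusted p = 0.0495 by edgeR). The cause of these changes was not tested. CHGA, CHGB and SCG5 are limited by depth, at 23 reads or fewer in any vehicle library.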

Other observations

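Evexomostat replicates 002 and 003, the tumours with raised CHGA, also shared other genes. With a rule written after the values had been seen (at least 3 times the RPM of every other library in both tumours, and at least 10 reads in both), CHGA and 14 other genes were found, which no list or test groups under a theme. They were SCG3, a granin that binds CHGA, with 26 and 18 reads against at most 7 elsewhere, and PCSK2, with 26 and 19 reads against at most 7. The transcription factor gene ATOH1 had 20 and 25 reads against at most 1 in any other library, POU4F3 had 53 and 68 against at most 10, and LHX3 had 25 and 30 against at most 4. STMN2, a neuronal microtubule protein, had 53 and 57 reads against at most 5, and KRT20, a keratin of Merkel and gut cells, had 12 and 20 against at most 1. The other genes were NELL1, KCNH6, HEPACAM2, CCER2, NEFM, KIF19 and PPP1R1B. INSM1, a neuroendocrine factor outside the rule, had 55 and 81 reads in these tumours but also 62 in vehicle replicate 007 and 36 in vehicle replicate 004.

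The same rule applied to each of the 55 pairs of libraries gave 17 genes for vehicle replicates 004 and 007, 15 for evexomostat replicates 002 and 003, and at most 3 for any other pair. The 17 of the vehicle pair included RCAN1, a calcineurin regulator (17348 and 13602 reads, at most 4660 elsewhere), F3, tissue factor (6805 and 5199, at most 1142), and NRP2, a semaphorin and VEGF co-receptor (5111 and 5834, at most 1088), the 3 with the most reads. VGF did not separate these tumours from the rest of their group: replicates 002 and 003 had 20.2 and 25.6 CPM, and replicate 004 had 19.6 CPM.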
